A study of Mus musculus with 26 samples.

Results

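Expression was compared between YFP-positive and YFP-negative liver cells taken on day 3 of a toxic diet, the earliest of the 3 diet times in the series. The comparison used 7 arrays: all 4 YFP-positive samples of day 3 and the 3 YFP-negative samples of day 3 with a scanner file, out of 20 arrays used and 26 samples in the whole series. The arrays were chosen by sample title alone, and 26650 genes were tested on them.

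The mice were Foxl1-CRE; RosaYFP animals aged 6 to 10 weeks, in which a Cre recombinase driven by Foxl1 switches on the yellow fluorescent protein YFP permanently. YFP-positive cells are therefore taken to carry a history of Foxl1-CRE activity. The absence of YFP does not show that YFP-negative cells lack one. The label says nothing of whether the driver was still active at the sort. Both fractions came from CD45-negative non-parenchymal liver cells of mice on DDC, a porphyrin-inducing toxin that injures the bile ducts. Day 0 samples, which entered the model and the authors' own comparisons, were total non-parenchymal cells of chow-fed mice of the same cross, with no CD45 or YFP sort stated. Whether a sample is 1 animal or a pool is not given in the sources used here, so p-values measure the spread between these samples, which may be technical. YFP and Foxl1 themselves are not analysed here.

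Bile ducts are lined by cholangiocytes, polarized epithelial cells held together by E-cadherin, claudins and desmosomes, with keratin filaments and a sensory primary cilium. On DDC and similar injuries duct-like cells multiply in the ductular reaction, and some of these cells are regarded as progenitors of cholangiocytes and hepatocytes. They lie among stellate cells and fibroblasts, which make collagen and retinoid stores, sinusoidal endothelial cells, and Kupffer cells, the resident macrophages.

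Levels are log2 processed signals minus the 75th percentile of the array, so a value of 0 is that percentile, and levels are compared for the same probe only. Between 81.0 and 88.3 percent of spots were well above background on the 7 arrays, and the number of arrays limits the precision. Differences are log2 YFP-positive minus YFP-negative, with the standard error of a limma model over all 20 arrays. A gene passed the test at a Benjamini-Hochberg adjusted p under 0.05.

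YFP-positive array 3 stood nearer to the YFP-negative arrays than to its own group. Its levels correlated over genes with YFP-negative arrays 1, 3 and 4 at r = 0.956, 0.920 and 0.951, and with YFP-positive arrays 1, 2 and 4 at 0.896, 0.916 and 0.784. This was not particular to array 3: YFP-positive array 2 correlated with the YFP-negative arrays at 0.908, 0.895 and 0.905, and with YFP-positive arrays 1, 3 and 4 at 0.893, 0.916 and 0.830. For 68.1% of 26561 genes the level of array 3 was closer to the YFP-negative mean than to the mean of the other 3 YFP-positive arrays. That share was not computed for another YFP-positive array, so it cannot be read as particular to array 3. The mean level of 30 biliary markers was 1.68, 1.68, -1.01 and 2.92 on YFP-positive arrays 1 to 4, against -2.29, 0.60 and -1.09 on YFP-negative arrays 1, 3 and 4. Array 3 was thus low for these duct markers, and YFP-negative array 3 is the highest of its own group. YFP-positive array 4 lay apart in another way: 15 macrophage markers averaged 3.23, 2.23, 2.80 and -2.65 on the YFP-positive arrays, against 2.77, 2.85 and 3.26 on the YFP-negative arrays. Levels are given array by array, and differences and list medians with all 7 arrays and, beside them, without YFP-positive array 3. That array was singled out for its low duct markers, so the values of such markers without it are descriptions and support nothing. For all other genes too, adjusted p-values and counts of passing genes without it only describe how the results depend on that array.

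**Figure D1:**
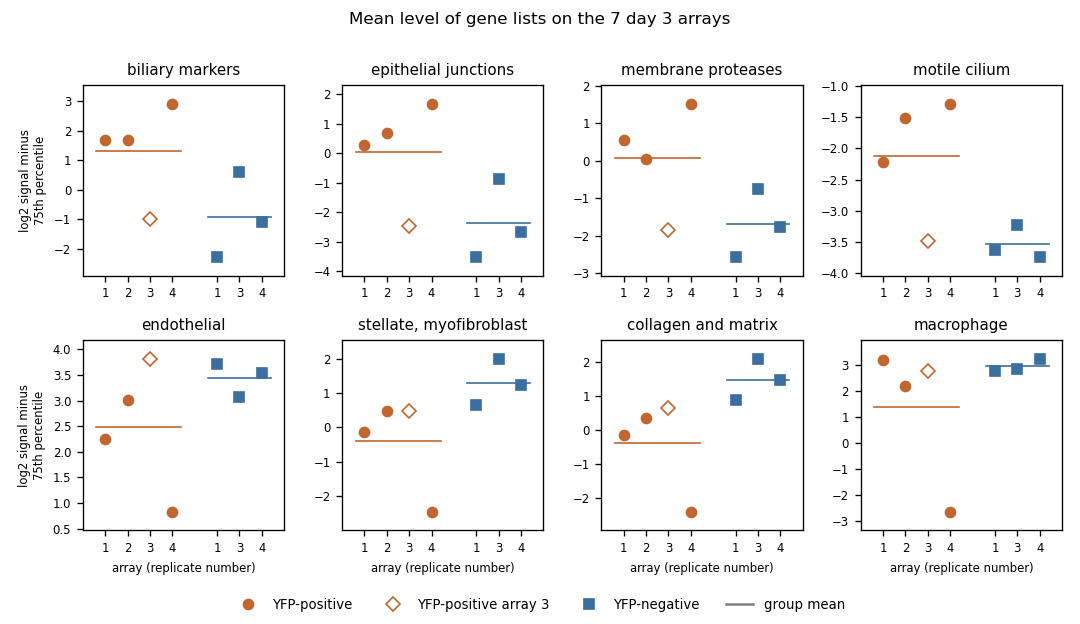
Mean level of 8 gene lists on each day 3 array (y axis, log2 signal minus the 75th percentile of the array), with YFP-positive arrays 1 to 4 at the left of each panel and YFP-negative arrays 1, 3 and 4 at the right, and bars for group means. The open diamond, YFP-positive array 3, lies among the YFP-negative squares for the biliary, junction and protease lists, and YFP-positive array 4 lies lowest for the matrix and macrophage lists.

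With all 7 arrays no gene passed the limma test. The smallest adjusted p was 0.600, shared by 4113 genes, while 2091 genes (7.85% of those tested) had an unadjusted p under 0.05, 1310 of them higher (4.92%) and 781 lower (2.93%). This count depended on single arrays, most of all on YFP-positive array 4. Without that array 1022 of 26650 genes had an unadjusted p under 0.05, and the smallest adjusted p was 0.993. The count was 1339 without YFP-negative array 3 and 1434 without YFP-negative array 4. It was 2283 without YFP-negative array 1, 2267 without YFP-positive array 1 and 2049 without YFP-positive array 2. Without YFP-positive array 3, 7 genes passed (0.0263%), of which 3 were higher and 4 lower, and 4049 genes (15.2%) had an unadjusted p under 0.05, 2303 of them higher (8.64%) and 1746 lower (6.55%). The balance of directions depended on the processing: of the genes with an unadjusted p under 0.05, 62.6% were higher with all arrays, against 13.0% after normexp background correction, 35.6% with a fixed slide block and 39.0% with a replicate block on the 7 day 3 arrays. Without array 3 the share was 56.9%, against 25.6%, 31.4% and 41.0% in those settings. Of the 7, Ccdc113, Prrg4 and Parn have gene symbols, and the others carry only clone or transcript identifiers. As array 3 was set aside for its values, these 7 are a description and not support. The median difference of all genes was 0.15, and list medians below are given relative to it or, without array 3, relative to 0.16. Of all 26650 genes 15219 had a positive difference and 11431 a negative one with all arrays, and list counts of directions are to be read beside these.

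Ccdc113 encodes a coiled-coil protein of cilia and centriolar satellites. Its level was -3.51, -1.91, -6.37 and -2.58 on YFP-positive arrays 1 to 4, against -6.77, -6.52 and -7.55 on YFP-negative arrays 1, 3 and 4. The groups did not overlap, and array 3 was the lowest of the YFP-positive arrays by a wide gap. The difference was 3.35 ± 0.83 (adjusted p = 0.600) with all arrays, and without array 3 Ccdc113 rose by 4.28 ± 0.60, 19.4-fold (adjusted p = 0.0313). These are dim probes: after normexp background correction the difference without array 3 was 1.20 with adjusted p = 0.439. Prrg4 encodes a membrane protein with a vitamin K-dependent Gla domain. It stood at 3.30, 2.90, 0.06 and 4.40 on the YFP-positive arrays, against -1.38, -1.09 and -0.57 on the YFP-negative arrays. All 4 YFP-positive arrays lay above all YFP-negative ones, again with array 3 nearest to them. The difference was 3.68 ± 0.83 (adjusted p = 0.600) with all arrays, and without array 3 Prrg4 rose by 4.54 ± 0.65 (adjusted p = 0.0313), with 4.42 after normexp correction (adjusted p = 0.0417).

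Parn, a poly(A)-specific ribonuclease, read -3.00, -2.58, -0.51 and -3.45 on the YFP-positive arrays, against -0.13, 0.12 and 1.65 on the YFP-negative arrays. The difference was -2.93 ± 0.62 (adjusted p = 0.600) with all arrays. Without array 3 this probe fell by 3.56 ± 0.50 (adjusted p = 0.0313), but the other probe of Parn differed in the opposite direction, so the direction of the gene is uncertain. Without array 3, Prrg4 and Parn each passed in 7 of 17 alternative settings and Ccdc113 in 7 of 16. The range of adjusted p was 0.0104 to 0.628 for Prrg4, 0.0100 to 0.479 for Parn and 0.0187 to 0.479 for Ccdc113. Only slide 1 held day 3 arrays of both fractions (array 1 of each), where the difference was 3.26 for Ccdc113, 4.68 for Prrg4 and -2.87 for Parn. With the slide as a fixed block, fitted over the arrays of all days, none of the 3 passed.

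The sequence before the start sites of Ccdc113 and Prrg4 is shown because these were the 2 named genes that passed and rose without array 3. That of Pkhd1, which is on both the biliary and the primary cilium lists, is shown beside them. Each run is 250 bases that end just before the annotated start in RefSeq, build GRCm38.p6, written 5′ to 3′ on the strand of the gene. No stretch is capitalised, since no motif was searched in them.
Ccdc113: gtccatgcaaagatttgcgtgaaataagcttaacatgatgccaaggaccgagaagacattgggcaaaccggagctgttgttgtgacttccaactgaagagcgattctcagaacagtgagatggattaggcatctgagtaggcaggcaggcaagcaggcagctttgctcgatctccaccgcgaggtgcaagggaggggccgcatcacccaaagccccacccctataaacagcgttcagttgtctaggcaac
Prrg4: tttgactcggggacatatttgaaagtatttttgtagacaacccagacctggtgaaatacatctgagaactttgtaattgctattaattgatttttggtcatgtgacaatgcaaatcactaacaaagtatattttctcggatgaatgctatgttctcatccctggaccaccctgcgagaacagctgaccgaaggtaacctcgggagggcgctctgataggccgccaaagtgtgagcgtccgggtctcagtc
Pkhd1: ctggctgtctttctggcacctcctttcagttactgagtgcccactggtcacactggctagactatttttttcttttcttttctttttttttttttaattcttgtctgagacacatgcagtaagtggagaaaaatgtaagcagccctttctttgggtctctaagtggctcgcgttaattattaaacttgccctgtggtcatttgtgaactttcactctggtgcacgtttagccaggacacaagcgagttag
The Ccdc113 run is chr8:95533850-95534099 on the plus strand, that of Prrg4 chr2:104849851-104850100 on the minus strand and that of Pkhd1 chr1:20618058-20618307 on the minus strand. These positions belong to the build of the RefSeq table and not to that of the probe positions.

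Genes whose arrays did not overlap between the fractions were also counted, without a test. With all 7 arrays, 996 genes (3.74% of those tested) had every YFP-positive array above every YFP-negative array, and 449 (1.68%) had every one below. After normexp correction this split turned to 246 higher and 894 lower, so the balance between the directions depends on how dim spots are treated. Without array 3 the counts were 2719 higher (10.2%) and 1774 lower (6.66%), and they too turned after normexp correction, to 1123 higher and 2092 lower.

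Among the named genes higher without overlap, the difference was largest for Caps2, which encodes a calcium-binding protein. Its level was -2.07, -5.60, -4.88 and -1.94 on YFP-positive arrays, against -9.42, -10.05 and -10.17 on YFP-negative arrays, none of which was well above background. With each YFP-negative array set no lower than the dimmest signal it resolved, the processed signal was 42.8-fold higher in YFP-positive cells. This fold holds for 1 background treatment only. The log2 difference was 6.26 with all arrays (adjusted p = 0.600) and 6.68 without array 3, but 0.94 after normexp correction. Array 3 did not stand apart for this gene. Cyp2s1, a cytochrome P450 of epithelia, read -2.96, -1.20, -3.56 and 0.68, against -6.22, -5.08 and -7.71. The gap between the groups was 4.57 ± 1.01 with all arrays and 5.17 ± 1.02 without array 3 (adjusted p = 0.0969). Dsc2, a desmosomal cadherin, stood at 1.63, 0.67, -2.43 and 3.03, against -3.36, -3.12 and -2.96 in YFP-negative cells. Its YFP-positive array 3 lay just above the YFP-negative arrays, and the difference was 3.87 ± 1.20, or 4.92 ± 1.07 without it. The other 7 genes of this kind were Dlgap1, Fsip1, Atp10a, Pla2g5, Lrriq1, Dact2 and Igsf11, with differences between 3.92 and 4.58, or between 4.40 and 5.48 without array 3. The probe of Dlgap1 was well above background on 1 of 3 YFP-negative arrays and that of Lrriq1 on none, though another probe of Lrriq1 was on 1. After normexp correction the differences were only 0.13 for Lrriq1, 0.89 for Pla2g5, 0.91 for Dlgap1 and 0.97 for Fsip1. Those of Atp10a, Dact2 and Igsf11 were 2.45, 2.26 and 2.51. Atp10a stood at -2.28, -3.25, -4.54 and 5.54, against -5.71, -5.50 and -5.21, so YFP-positive array 4 raised its mean.

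In the opposite direction, Slc10a6, a transporter of sulfated steroids, read -7.30, -8.05, -4.40 and -8.00 on the YFP-positive arrays, against -3.32, -0.92 and -0.07 on the YFP-negative arrays. The difference was -5.50 ± 1.49, or -6.35 ± 1.52 without array 3, and 2 of the 4 YFP-positive arrays were well above background. Fbxo39, an F-box protein, stood at -10.01, -9.96, -6.05 and -9.16, against -3.40, -3.39 and -4.21. Here too array 3 was the YFP-positive array nearest to the YFP-negative ones, and the difference of -5.13 ± 1.08 was -6.04 ± 0.98 without it (adjusted p = 0.0686). Of the YFP-positive arrays only array 3 was well above background for Fbxo39. Tnfaip6, a hyaluronan-binding protein of inflamed tissue, read -10.36, -6.13, -4.40 and -9.27, against -2.98, -1.01 and -4.25. For Ccl11, the chemokine eotaxin, the levels were -10.06, -3.02, -2.53 and -9.14, against -1.37, -0.53 and -1.11. YFP-positive arrays 1 and 4 were far below the YFP-negative range for both genes, while arrays 2 and 3 were nearer. Their differences were -4.79 ± 1.27 and -5.18 ± 1.80, or -5.84 ± 1.16 and -6.40 ± 1.77 without array 3. For each of them 2 of the 4 YFP-positive arrays were well above background. After normexp correction the differences of Slc10a6, Fbxo39, Tnfaip6 and Ccl11 were smaller, at -3.28, -2.44, -2.79 and -2.84. Differences of Islr, Hs3st3a1, Col15a1, Vit, Nmnat2 and Ccl21a lay between -4.99 and -4.42, and between -6.00 and -4.22 without array 3. Vit and Nmnat2 each have another probe that differed in the opposite direction, and Ccl21a has near-identical copies that its probe may not separate. Across the alternative settings the difference of Islr, which has another probe, ranged from -6.00 to -0.45. For Vit and Hs3st3a1 2 of the 4 YFP-positive arrays were well above background, and for Nmnat2 only array 3.

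Biliary markers were higher on average on YFP-positive arrays 1, 2 and 4. Of 30 measured, 29 had a positive difference with all arrays, the exception being Aqp1, a water channel, and 20 had an unadjusted p under 0.05 against 4.92% of all genes in that direction. None passed. Their median difference relative to all genes was 2.25, and 2.95 without array 3. Only Cldn4 had no overlap with all arrays, and none had after normexp correction, against 22 without array 3, beside 3.74% and 10.2% of all genes. On slide 1 the relative median was 4.02.

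Krt19, a keratin of duct cells, stood at 2.79, 2.26, -1.47 and 4.48 on YFP-positive arrays, against -3.23, 1.46 and -1.86 on YFP-negative arrays. YFP-positive arrays 1, 2 and 4 were above all YFP-negative arrays and array 3 was inside their range. The difference was 3.23 ± 1.26, and 4.39 ± 1.09 without array 3 (adjusted p = 0.131). Cftr, the chloride channel of ductal secretion, read 0.63, 0.93, -1.61 and 1.96, against -2.78, -1.33 and -2.05. Pkhd1, the fibrocystin of the biliary cilium, was at -1.26, -0.02, -2.72 and 2.29, against -6.10, -1.74 and -5.43. For both genes only array 3 broke the separation of the groups, and their differences of 2.53 ± 0.79 and 4.00 ± 1.34 were 3.23 ± 0.70 and 4.76 ± 1.37 without it. Ehf, an epithelial ETS factor, read -0.60, 0.36, -2.50 and 1.86, against -2.95, -2.20 and -2.71. The collagen receptor Ddr1 and the keratin Krt8 followed with differences of 2.39 ± 0.78 and 1.66 ± 0.72, or 3.06 ± 0.70 and 2.40 ± 0.58 without array 3.

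Epcam, Sox9 and Spp1 were added after their values were seen, because they are commonly used to mark ducts and progenitors. Epcam, an epithelial adhesion molecule, read 4.00, 3.59, 0.40 and 5.85 in YFP-positive cells, against -1.61, 2.44 and 0.40 in YFP-negative cells. Sox9, a transcription factor of ducts, was at 2.89, 3.02, -0.19 and 4.07, against -3.21, 2.30 and -0.84. Spp1, or osteopontin, read 5.67, 5.58, 4.16 and 6.66, against 2.56, 5.47 and 4.19, so YFP-negative array 3 all but reached YFP-positive arrays 1 and 2. Duct transcripts were therefore present on YFP-negative arrays too. In bulk samples such as these, fewer cells of a type and less RNA per cell cannot be told apart.

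Junction genes, too, were higher on average on YFP-positive arrays 1, 2 and 4. Of 18 measured, 17 had a positive difference, 11 with an unadjusted p under 0.05 beside 4.92% of all genes, and the relative median was 2.63, or 3.44 without array 3. No member passed, 1 (Cldn4) did not overlap with all arrays, and 14 did not overlap without array 3, against 3.74% and 10.2% of all genes. Cdh1, the E-cadherin of adherens junctions, read 2.36, 2.14, -1.43 and 3.80 on YFP-positive arrays, against -2.88, 1.41 and -1.27 on YFP-negative arrays. Dsp, which anchors keratin at desmosomes, was at 2.10, 2.71, -0.16 and 3.98, against -2.97, 1.79 and -2.39. Cldn4, a tight junction claudin, had a difference of 2.87 ± 1.22 with all arrays and 3.52 ± 1.25 without array 3. Marveld3, another tight junction protein, read 0.86, 0.55, -5.79 and 1.08, against -8.02, -2.29 and -5.00. Its array 3 lay far under the other YFP-positive arrays, and the difference of 4.28 ± 1.65 became 5.93 ± 1.34 without it (adjusted p = 0.116). Across the alternative settings the difference of Marveld3 ranged from 0.40 to 5.93. Cldn2, a claudin that lets water and cations through, read 2.76, 3.23, -1.33 and 5.19, against -3.06, 1.21 and -1.10. The claudins Cldn6 and Cldn7 and the polarity genes Pard6b and Crb3 had differences between 2.70 and 3.68, or between 3.53 and 4.61 without array 3, with array 3 the lowest YFP-positive array in each.

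Membrane proteases and their inhibitors, which act together on epithelial surfaces, numbered 10, of which 9 had a positive difference. An unadjusted p under 0.05 was found for 6 in the higher and 1 in the lower direction, beside 4.92% and 2.93% of all genes. Their relative median was 2.16, and 2.76 without array 3, when 7 were higher and 1 lower without overlap, beside 10.2% and 6.66% of all genes. St14, the protease matriptase, read 0.31, -0.60, -3.87 and 1.21 in YFP-positive cells, against -4.76, -1.77 and -4.48 in YFP-negative cells. Prss8, its partner prostasin, was at 0.54, -0.35, -4.39 and 2.43, against -4.68, -1.64 and -2.68. Spint1, an inhibitor of matriptase, read 2.53, 3.17, -0.55 and 4.85, against -4.63, 1.47 and 1.44. Array 3 was within the YFP-negative range for all 3 genes and the other YFP-positive arrays were above it. With all arrays only the inhibitor Spint2 was higher without overlap (0.86, or 1.09 without array 3), and Prss23 was lower without overlap (-1.39, or -1.38 without array 3), beside 3.74% and 1.68% of all genes.

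**Figure D2:**
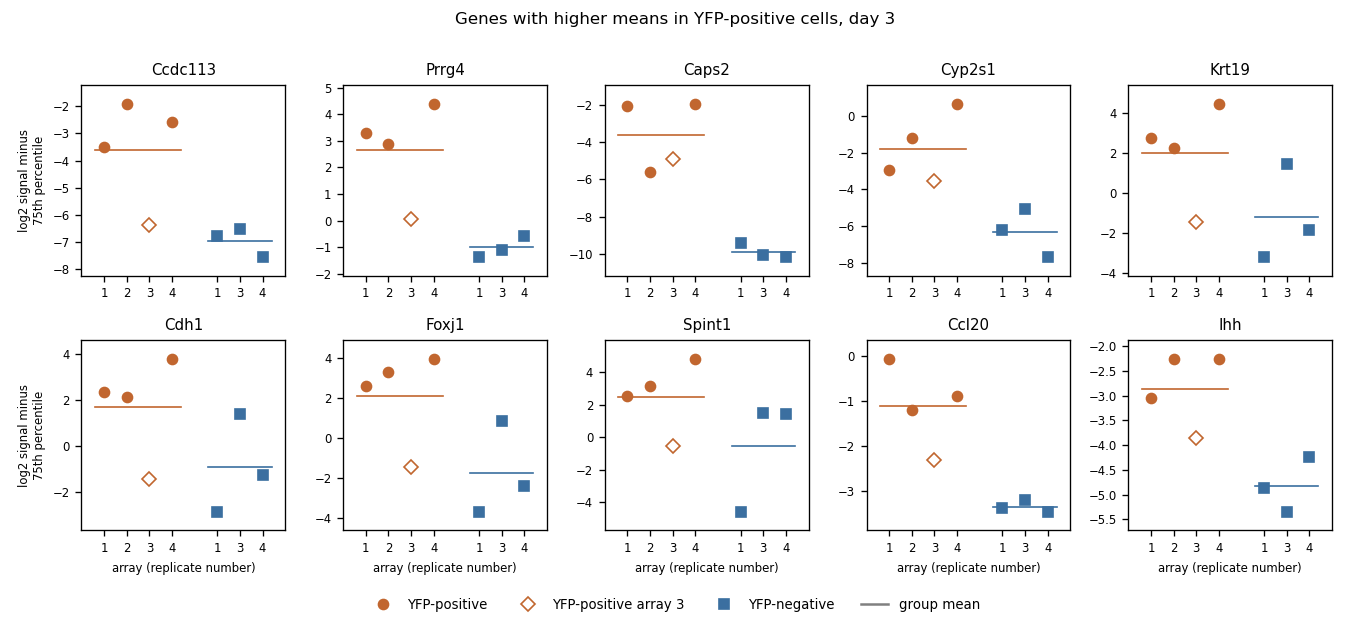
Level of 10 genes on each day 3 array (y axis, log2 signal minus the 75th percentile of the array, with its own scale in each panel), YFP-positive arrays 1 to 4 at the left, YFP-negative arrays 1, 3 and 4 at the right, and bars for group means. Ccdc113, Prrg4, Caps2, Cyp2s1, Ccl20 and Ihh did not overlap, whereas for Krt19, Cdh1, Foxj1 and Spint1 the open diamond of YFP-positive array 3 lies within the YFP-negative range.

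Genes of motile cilia, the beating cilia of airway and ependyma that normal ducts lack, were measured for 15 list members. All 15 had a positive difference, 5 with an unadjusted p under 0.05 (beside 4.92% of all genes), and none passed. The relative median was 0.75, and 0.87 without array 3. Of the 15, 3 did not overlap with all arrays (3.74% of all genes) and 7 without array 3 (10.2%). After normexp correction these counts were 1 and 5, beside 246 and 1123 of all 26650 genes that were higher without overlap. Foxj1, the transcription factor that directs motile cilia, read 2.58, 3.31, -1.43 and 3.97 on YFP-positive arrays, against -3.69, 0.84 and -2.41 on YFP-negative arrays. The difference was 3.86 ± 1.36, and 5.04 ± 1.21 without array 3 (adjusted p = 0.130). The radial spoke gene Rsph9, listed as 1700027N10Rik, was at -1.19, -0.55, -2.70 and 1.45, against -2.83, -3.11 and -3.22. Cfap126, listed as 1700009P17Rik, read 0.22, 1.77, -1.15 and 1.53, against -1.35, -1.17 and -1.87. Both stood above all YFP-negative arrays on every YFP-positive array, though array 3 did so narrowly. Their differences were 2.31 ± 0.81 and 2.06 ± 0.75, or 2.96 ± 0.75 and 2.64 ± 0.71 without array 3. Ccdc39, a ruler protein of the axoneme, was the last of the 3 without overlap (0.78, or 0.74 without array 3). The dynein genes Dnali1 and Dnahc5 (now Dnah5) had differences of 2.36 ± 0.91 and 1.97 ± 1.15 (3.29 ± 0.73 and 2.74 ± 1.14 without array 3), and their array 3 levels lay within the YFP-negative range.

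Of 12 genes of the primary cilium and polycystic disease, 9 had a positive difference. An unadjusted p under 0.05 was found for 2 in the higher and 1 in the lower direction, beside 4.92% and 2.93% of all genes. Cys1, the cystin of the ciliary membrane, read -0.16, -0.65, -3.07 and 2.17, against -9.03, -0.73 and -4.34. Its YFP-negative array 3 was level with YFP-positive array 2, and the difference was 4.27 ± 1.54, or 5.15 ± 1.57 without YFP-positive array 3. Bicc1, an RNA-binding protein mutated in cystic kidneys of mice, had a difference of 2.34 ± 1.10, or 3.32 ± 0.97 without array 3.

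The laminins, basement membrane proteins, went both ways, with 5 of 10 positive. Lamb3, a chain of an epithelial laminin, read -1.11, -1.96, -4.00 and 4.43 in YFP-positive cells, against -3.45, -2.96 and -4.95 in YFP-negative cells. Lama1, a chain of another laminin, read -10.08, -8.13, -4.59 and -8.03, against -4.23, -3.42 and -2.71. The groups did not overlap for Lama1, whose difference was -4.26 ± 1.34, or -5.30 ± 1.27 without array 3. In all, 2 of the 10 laminins were lower without overlap, beside 1.68% of all genes. Of the YFP-positive arrays only array 3 was well above background for Lama1, and its difference was -1.95 after normexp correction.

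Of 19 chemokine and cytokine genes, 12 had a positive difference, 5 with an unadjusted p under 0.05, 1 had an unadjusted p under 0.05 in the lower direction, and none passed. The shares of all genes in those directions were 4.92% and 2.93%. Ccl20, which attracts CCR6-bearing lymphocytes, read -0.07, -1.20, -2.32 and -0.89 on YFP-positive arrays, against -3.37, -3.20 and -3.47 on YFP-negative arrays. It alone of the list did not overlap with all arrays (beside 3.74% of all genes), and its difference was 2.22 ± 0.59, or 2.63 ± 0.58 without array 3 (adjusted p = 0.112). After normexp correction the difference of Ccl20 was 1.17, and no gene of the list was free of overlap with all arrays. Cxcl5, a neutrophil attractant, was at 2.27, 1.86, -2.13 and 2.46, against -3.45, -0.04 and -2.64. Tnfrsf12a, the receptor Fn14 for TWEAK, read 1.11, 2.36, -0.98 and 3.29, against -1.13, 0.49 and -0.70. Lcn2, an iron-siderophore binder of injured epithelium, was at 1.41, 0.48, -1.47 and 4.76, against -5.08, 0.15 and 0.15. Array 3 was the lowest YFP-positive array for each of these. Ltb, a lymphotoxin, overlapped through YFP-negative array 4: 0.93, -0.07, -0.53 and 0.66, against -4.35, -2.18 and 0.54. Cxcl10, an interferon-induced chemokine, read -0.84, -0.16, 1.02 and -4.17, against 1.32, 0.20 and 1.30, and only without array 3 did every YFP-positive array lie under the YFP-negative arrays.

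Of 19 growth factor genes 13 had a positive difference. Met, the receptor of hepatocyte growth factor, read 1.52, 1.15, -0.85 and 2.85 on YFP-positive arrays, against -1.43, 0.31 and -0.63 on YFP-negative arrays. Its ligand Hgf was at 1.81, 2.55, 3.52 and 1.08, against 3.71, 2.78 and 3.10. The receptor had a positive difference (1.75 ± 0.75, or 2.42 ± 0.65 without array 3) and the ligand a negative one (-0.95 ± 0.54, or -1.38 ± 0.51), and neither passed. Egfr, the receptor of epidermal growth factor, was the only 1 of the 19 without overlap (1.35 ± 0.65, or 1.54 ± 0.70 without array 3), beside 3.74% of all genes. Egfr overlapped after normexp correction, and 1 of its 5 other probes differed the other way. Fgf10, a mesenchymal ligand, was not well above background on any YFP-positive array.

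Of 12 Hedgehog genes 6 had a positive difference. Ihh, a ligand, read -3.05, -2.26, -3.86 and -2.25, against -4.86, -5.35 and -4.24, and the groups did not overlap (1.96 ± 0.55, or 2.30 ± 0.55 without array 3). The effector Gli2 also did not overlap, at 0.97 ± 0.57, or 0.96 ± 0.63 without array 3. These were 2 of 12 genes, beside 3.74% of all genes. After normexp correction Ihh differed by 0.60 and Gli2 by 0.039. No Hedgehog gene was then higher without overlap while 2 were lower, beside 246 higher and 894 lower of all 26650 genes. The ligand-binding membrane proteins Gas1 and Hhip had negative differences, -2.80 ± 1.05 and -3.13 ± 1.22, or -2.82 ± 1.16 and -3.96 ± 1.20 without array 3. Of 14 Notch genes 8 had a negative difference. Hey1, a target of Notch, read 0.20, -0.70, 0.35 and -1.39 in YFP-positive cells, against 0.64, 1.75 and 0.43 in YFP-negative cells. The receptor Notch3 was at -4.93, -3.54, -2.98 and -2.62, against -1.19, -1.52 and -2.51. Both were lower without overlap, by small margins, 2 of 14 beside 1.68% of all genes. Their differences of -1.33 ± 0.52 and -1.78 ± 0.94 were -1.57 ± 0.55 and -1.96 ± 1.04 without array 3. Notch1 and the target Nrarp had differences of -1.16 ± 0.56 and -1.94 ± 0.87 (-1.59 ± 0.53 and -2.53 ± 0.85 without array 3), whereas that of the receptor Notch2 was 0.91 ± 0.65 (1.45 ± 0.59).

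Of 16 Wnt genes 9 had a negative difference, as had 11431 of all 26650 genes. Their relative median was -1.26, -1.03 without array 3 and -0.63 without YFP-positive array 4, but -0.19 with a fixed slide block and -0.10 on slide 1. Sfrp1, a secreted Wnt antagonist, read -4.25, -3.33, -3.00 and -5.78 on YFP-positive arrays, against -0.79, 0.78 and -0.10 on YFP-negative arrays. The groups were clearly apart, array 3 included, and the difference was -4.06 ± 0.97 with all arrays and -4.42 ± 1.03 without array 3 (adjusted p = 0.123). Rspo3, a secreted enhancer of Wnt signals, read 1.17, 1.80, 2.33 and -1.17, against 3.55, 3.07 and 2.35, without overlap (-1.96 ± 0.77, or -2.39 ± 0.79 without array 3). Sfrp1 and Rspo3 were the 2 of 16 lower without overlap, beside 1.68% of all genes. The endothelial ligand Wnt2 and the target Axin2 had differences of -1.29 ± 0.61 and -1.68 ± 0.73, or -1.78 ± 0.56 and -2.34 ± 0.64 without array 3. Znrf3, a ligase that removes Wnt receptors, had a positive one (2.16 ± 0.78, or 2.39 ± 0.84 without array 3), which was 0.067 after normexp correction.

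**Figure D3:**
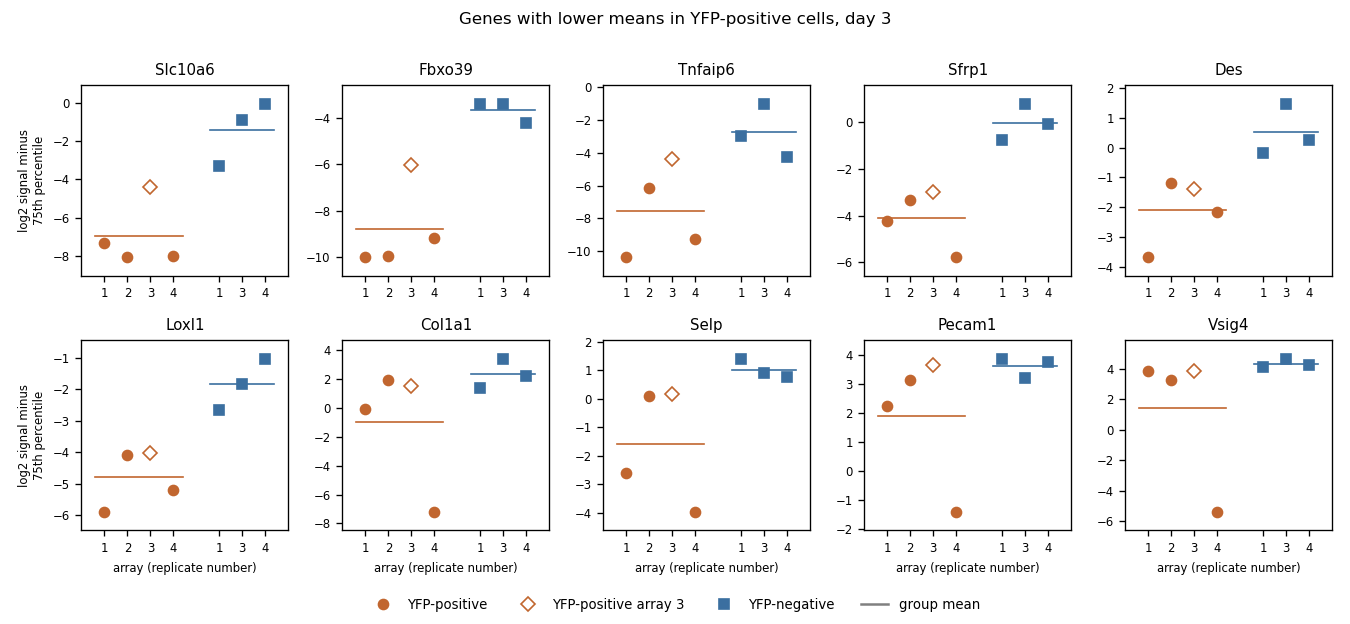
Level of 10 genes with a negative difference on each day 3 array (y axis, log2 signal minus the 75th percentile of the array, with its own scale in each panel), YFP-positive arrays 1 to 4 at the left, YFP-negative arrays 1, 3 and 4 at the right, and bars for group means. Slc10a6, Fbxo39, Tnfaip6, Sfrp1, Des, Loxl1, Selp and Vsig4 did not overlap, and for Col1a1, Pecam1 and Vsig4 the mean of the YFP-positive arrays is drawn down by array 4.

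Stellate cell and myofibroblast markers were lower on average in YFP-positive cells. Of 20 measured, 16 had a negative difference, 7 with an unadjusted p under 0.05 against 2.93% of all genes in that direction, and none passed. Their relative median was -1.89, and -2.22 without array 3 but -1.12 without YFP-positive array 4. Of the 20, 5 (Tagln, Des, Lrat, Lum and Islr) were lower without overlap, against 1.68% of all genes. Islr has another probe, and its difference ranged from -6.00 to -0.45 across the alternative settings. On slide 1 the relative median was only -0.31. Des, the muscle filament desmin of stellate cells, read -3.69, -1.18, -1.37 and -2.16 on YFP-positive arrays, against -0.19, 1.48 and 0.25 on YFP-negative arrays. Tagln, an actin-binding protein of myofibroblasts, was at 0.15, 1.38, 1.46 and -0.50, against 1.94, 3.06 and 2.18. Lrat, which esterifies retinol in quiescent stellate cells, read -2.11, -0.58, -0.88 and -3.05, against -0.36, 0.41 and -0.08. Array 3 sided with the other YFP-positive arrays for these 3 genes. Their differences were -2.61 ± 0.91, -1.77 ± 0.66 and -1.65 ± 0.67, or -2.86 ± 0.99, -2.05 ± 0.69 and -1.91 ± 0.71 without array 3. Col1a1, a chain of type I collagen, read -0.09, 1.90, 1.49 and -7.21, against 1.39, 3.41 and 2.18. Dcn, the proteoglycan decorin, was at 1.08, 1.93, 1.75 and -6.26, against 1.92, 3.42 and 3.02. Their differences were -3.30 ± 1.56 and -3.16 ± 1.45, or -4.12 ± 1.62 and -3.87 ± 1.52 without array 3, but only -1.22 ± 0.76 and -1.20 ± 0.65 without YFP-positive array 4. Rgs5, a pericyte gene, had a difference in the other direction (1.06 ± 0.62, or 1.65 ± 0.52 without array 3).

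Of 18 collagen and matrix genes 17 had a negative difference, 10 with an unadjusted p under 0.05 beside 2.93% of all genes, and the relative median was -2.25, or -2.52 without array 3 and -1.34 without YFP-positive array 4. On slide 1 the relative median was only -0.54. Loxl1, which crosslinks elastin, read -5.90, -4.09, -4.01 and -5.20 in YFP-positive cells, against -2.66, -1.81 and -1.03 in YFP-negative cells. Col6a1, a chain of type VI collagen, was at -4.69, -2.21, -2.57 and -6.22, against -1.78, 0.13 and -1.45. Fbln5, a protein of elastic fibres, read -0.68, -1.73, -0.25 and -6.97, against 0.72, 2.06 and 0.49. These and Bgn, the proteoglycan biglycan, were the 4 without overlap, beside 1.68% of all genes, and array 4 was the lowest for Col6a1 and Fbln5. The differences of Loxl1, Col6a1 and Fbln5 were -2.97 ± 0.75, -2.89 ± 0.99 and -3.50 ± 1.30, or -3.23 ± 0.81, -3.34 ± 1.04 and -4.22 ± 1.33 without array 3.

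All 20 endothelial markers had a negative difference, none with an unadjusted p under 0.05, and their relative median was -1.13, or -1.60 without array 3 and -0.41 without YFP-positive array 4. It was -0.44 after normexp correction and -0.57 with a fixed slide block. With all arrays none was free of overlap, and without array 3 it was 6, beside 6.66% of all genes. Pecam1, the adhesion molecule CD31, read 2.22, 3.13, 3.65 and -1.42 on YFP-positive arrays, against 3.87, 3.21 and 3.76 on YFP-negative arrays. Cdh5, the cadherin of endothelial junctions, was at 2.37, 3.21, 4.46 and 0.98, against 3.93, 3.53 and 3.76. Array 3 was within or above the YFP-negative range and array 4 far below it. Both genes were well above background on all 4 YFP-positive arrays. The mean of the list was 2.25, 3.01, 3.82 and 0.82, against 3.71, 3.06 and 3.55. Of 12 markers of lymphatic and large vessels 10 had a negative difference. Selp, the P-selectin of veins, read -2.60, 0.09, 0.17 and -3.98, against 1.40, 0.91 and 0.76, and with Ccl21a and Ccbe1 it was lower without overlap, beside 1.68% of all genes. Mmrn1, a lymphatic matrix protein, was at -8.46, -7.97, -3.03 and -6.84, against -3.20, 0.57 and -2.22, with array 3 inside the YFP-negative range. Array 3 was also the only YFP-positive array well above background for Mmrn1. Prox1, a transcription factor of lymphatic vessels and of liver epithelium, had a positive difference (2.05 ± 0.90, or 2.48 ± 0.94 without array 3).

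Leukocyte transcripts were present although both fractions were sorted as CD45-negative. Ptprc, the gene of CD45, read 3.72, 1.52, 2.16 and -7.55 on YFP-positive arrays, against 1.69, 1.50 and 3.37 on YFP-negative arrays. Only YFP-positive array 4 was not well above background for it. Marco, a scavenger receptor of Kupffer cells, was at 5.24, 5.47, 5.46 and 0.28, against 5.51, 5.78 and 5.30. Vsig4, a complement receptor of Kupffer cells, read 3.87, 3.28, 3.89 and -5.42, against 4.10, 4.67 and 4.23. All 15 macrophage markers had a negative difference with a relative median of -1.53, or -2.03 without array 3, and none had an unadjusted p under 0.05. This rests on array 4: without it the relative median was -0.32, on slide 1 it was 0.57, and with the slide as a fixed block 1.36. Clec4f, Timd4 and Vsig4 were lower without overlap, 3 of 15 beside 1.68% of all genes, and after normexp correction it was 1. The neutrophil list averaged 0.64, -3.06, -0.52 and -5.51, against -1.97, -1.76 and 0.52, and S100a9, a neutrophil calcium binder, read 5.21, 3.45, 4.42 and -5.33, against 3.97, 3.79 and 4.87. Of 15 lymphoid genes 8 had a negative difference, and 2 were higher without overlap, beside 3.74% of all genes. The T cell gene Cd4 was 1 of these 2 (0.79 ± 0.37, or 0.90 ± 0.40 without array 3). After normexp correction Cd4 differed by 0.20, and no lymphoid gene was free of overlap with all arrays, nor after quantile normalization. The part of leukocytes in the differences of other gene groups was not tested.

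The erythroid list, 12 genes of red cell precursors, had a relative median of -2.13, or -2.16 without array 3, with 9 negative and none with an unadjusted p under 0.05. That median was -0.022 with a fixed slide block and -0.33 on slide 1. Its mean was -2.80, -3.33, -1.82 and -4.16 in YFP-positive cells, against -2.15, -1.01 and -0.49 in YFP-negative cells. Slc4a1, the band 3 anion exchanger, read -0.99, -1.73, 0.66 and -0.75, against 1.01, 1.61 and 3.30, without overlap (-2.67 ± 1.54, or -3.13 ± 1.67 without array 3). It was the only 1 of the 12 lower without overlap, beside 1.68% of all genes. Hepatocyte transcripts were found in both fractions. Alb, serum albumin, read 5.32, 4.43, 4.11 and 6.22, against 4.25, 4.49 and 5.20, with a difference of 0.37 ± 0.52, or 0.68 ± 0.53 without array 3. Ahsg, the plasma protein fetuin, was at 4.28, 4.28, 2.77 and 5.46, against 2.70, 1.56 and 3.40. Of 18 hepatocyte genes 11 had a positive difference, as had 15219 of all 26650 genes, and 1 had an unadjusted p under 0.05, beside 4.92% of all genes. The relative median was 0.31, or 0.41 without array 3. Of 10 fetal liver genes 7 had a negative difference, and of 10 mesothelial genes 6 had a positive one.

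**Figure D4:**
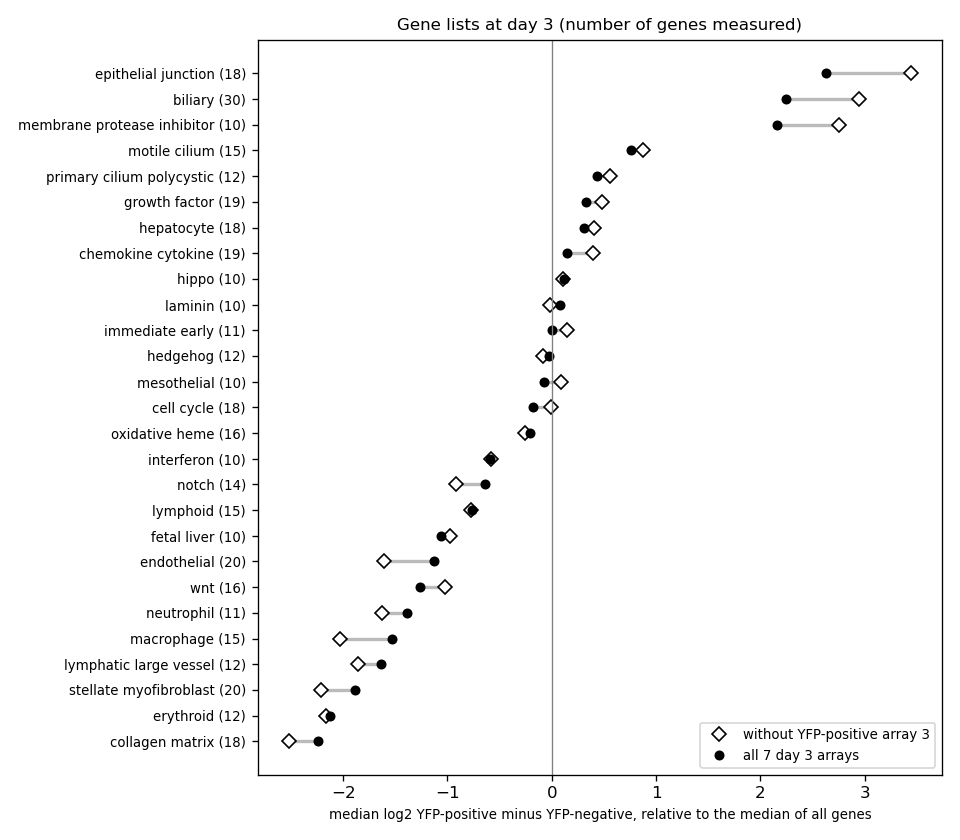
Median difference of each gene list relative to the median of all genes (x axis, log2 YFP-positive minus YFP-negative), with all 7 day 3 arrays (filled circles) and without YFP-positive array 3 (open diamonds), and the number of genes measured beside each name. Junction, biliary and protease lists lie highest and move further from 0 without array 3, while collagen and matrix, erythroid, and stellate lists lie lowest, the erythroid one near 0 (-0.022) once the slide is a fixed block.

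Among lists of general cell states, the interferon list lay farthest from the median of all genes, and the others lay nearer to it. The relative median was -0.18 for 18 cell cycle genes, -0.21 for 16 genes of oxidative stress and heme, 0.0056 for 11 immediate early genes, 0.12 for 10 Hippo genes and -0.60 for 10 interferon genes. Without array 3 these medians were -0.0074, -0.25, 0.15, 0.11 and -0.58 in the same order. Ccnd1, the cyclin that opens the cell cycle, read 2.39, 2.62, 1.30 and 4.33 on YFP-positive arrays, against 1.33, 1.23 and 1.90 on YFP-negative arrays. Mki67, a marker of dividing cells, was at 2.45, 2.49, 1.56 and 2.10, against 1.28, 2.08 and 1.76. For both genes YFP-positive arrays 1, 2 and 4 lay above all YFP-negative arrays, and the differences were 1.17 ± 0.54 and 0.45 ± 0.56, or 1.63 ± 0.49 and 0.64 ± 0.60 without array 3. Ankrd1, a target of the Hippo effector YAP, read -0.18, 0.41, -4.06 and 1.87, against -6.12, -1.14 and -3.78. The interferon-induced genes Ifit3 and Rsad2 were lower without overlap, at -1.67 ± 0.75 and -1.84 ± 0.84 (-2.01 ± 0.79 and -2.39 ± 0.83 without array 3), and Nqo1, an antioxidant enzyme, at -0.87 ± 0.49 (-0.95 ± 0.54). These were 2 of 10 interferon genes and 1 of 16 genes of oxidative stress and heme, beside 1.68% of all genes. With the slide as a fixed block Rsad2 differed by only -0.0011.

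To see whether the fractions differed at day 3 otherwise than later, the day 3 difference was set against the mean of the differences at days 7 and 14, each within its own day. No gene passed the limma test of that contrast with all arrays, where 671 genes (2.52%) had an unadjusted p under 0.05, nor without array 3, where it was 953 genes (3.58%). The relative median of biliary markers was 2.25 at day 3, 2.34 at day 7 and 2.69 at day 14. That of stellate markers was -1.89, -1.93 and -3.40 at the same days, and that of macrophage markers -1.53, 0.056 and -0.91. Without array 3 the day 3 values of these lists were 2.95, -2.22 and -2.03. Ccdc113 had a difference of 3.35 at day 3, 0.53 at day 7 and 1.42 at day 14, and the test of day 3 against the later days without array 3 gave an adjusted p of 0.694. Prrg4 differed by 3.68, 1.82 and 2.65 at those days.

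The authors' deposited table compares each fraction with day 0. In the authors' deposited table Ccdc113 has a signed fold change of 11.6 in YFP-positive cells (false discovery rate 5.69%) and of 1.33 in YFP-negative cells (57.7%). For Prrg4 the authors' deposited table gives 6.52 in YFP-positive cells (8.36%) and -1.29 in YFP-negative cells (46.4%). Slc10a6 is at -12.5 in YFP-positive cells (4.19%) and at 2.57 in YFP-negative cells (26.1%) in the authors' deposited table. Both fractions are set there against the same day 0 samples, for which no CD45 sort is stated.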

How the data were processed

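RNA of sorted mouse liver cells was measured on Agilent 1-colour arrays. Per the labels' protocols, RNA was amplified with the WT-Ovation Pico system and labelled with Cy3. Per the file headers, Feature Extraction 10.5.1.1 wrote the scanner files of design 014868, with probe positions of build mm9, whereas the submitters' processing notes name version 9.53. The processed signal is an intensity that the software corrected for background, deposited without normalization between arrays, per the file headers. The authors' deposited series table holds a signed fold change, entered here as a score, and a percent false discovery rate, each of a group against day 0, by a method not given in the sources used here. Neither is a log2 value per the file headers, and the log2 scale was computed here.

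Control spots and outlier spots were left out, spots of a probe averaged, and the 75th percentile of each array subtracted on the log2 scale. Of 41174 probes 39595 were well above background on at least 2 arrays, and the brightest probe of each gene was kept, 26650 genes in all. Names were matched to RefSeq GRCm38.p6 by accession (16249), symbol (2385) or synonym (859), and 7157 stayed as in the files. One mean for each of 7 groups was fitted over 20 arrays with limma 3.58.1 in R 4.3.3 (2.32 prior and 13 residual degrees of freedom, 12 without YFP-positive array 3), with moderated statistics and Benjamini-Hochberg adjustment over all genes. The fit was tested on simulated data. For a probe that no array of the dimmer group measured above background, each such array was set no lower than the dimmest signal it did resolve. A fold computed in this way depends on the background treatment.

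The comparison, the array set aside and the 27 lists (392 of 396 genes measured) were chosen with earlier results of these data known. Genes were named by a rule: those past the threshold, the 10 largest differences in each direction without overlap, and from each list the first member, up to 4 with the smallest p and up to 2 more without array 3, and markers farthest from the group on array 3. Of 199 such genes 103 are given in the text. Another 8, namely Epcam, Sox9, Spp1, Cldn4, Spint2, Prss23, Ccdc39 and Lum, were chosen after their values were seen, as were the bare names Aqp1, Bgn and Ccbe1. Slides were told apart by the array barcode. Alternatives were normexp with an offset of 50, quantile normalization, other filters and probe rules, array weights, slide or replicate blocks, the day 3 arrays alone, and leaving out each array.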

Additional observations from a re-analysis of the deposited data

Results flagged for a closer look

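In the group of 4 YFP-positive arrays, 1 array stood apart from the others for 11 of 138 measures, that is 111 genes and 27 list means, by a gap to its nearest neighbour that exceeded Dixon's critical share of the range of the group. Chance alone gives such a gap in about 1 of 20 groups not chosen for it, and the 3 YFP-negative arrays were too few to be examined in this way.

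YFP-positive array 4 was the lowest for the Kupffer cell genes Marco (gap 0.956 of the range), Vsig4 (0.934), Clec4f (0.861) and Timd4 (0.841), and for the mean of the macrophage list (0.830). It was also the lowest for the neutrophil gene S100a9 (0.833), for the matrix genes Lum (0.919) and Dcn (0.896) and for the mean of the Hedgehog list (0.949). YFP-positive array 3 was the lowest for the tight junction gene Marveld3 (0.924) and for the chemokine gene Cxcl5 (0.869). Marveld3 was named because it lay far from its group on array 3, so that the chance rate does not apply to it. The cause was not tested.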

How the results depend on the processing

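With all 7 arrays, 0 genes passed in 16 of the 18 alternative settings, and leaving out 1 array gave 0 to 7 genes, 1 without YFP-negative array 4 and 7 without YFP-positive array 3. The contrast of day 3 with days 7 and 14 gave 0 genes in each of the 16 settings run. Without YFP-positive array 3 the count of 7 became 11 with quantile normalization, 3 with probes well above background on every array, 3 with the mean over probes, 2 with normexp, 1 with array weights, 0 with a fixed slide block, 0 with the 6 day 3 arrays alone, and leaving out a further array gave 0 to 280 (280 without YFP-positive array 2, 97 without YFP-negative array 3). Same-numbered arrays correlated at -0.067, -0.082 and -0.12 in their deviations from the group means. With only 3 such pairs, 1 of them with YFP-positive array 3, these values cannot settle whether replicate numbers pair the samples. A replicate block left the count at 0 with all arrays and gave 1 without array 3, or 0 with the 6 day 3 arrays alone. Genes without overlap numbered 1969 to 4984 when 1 array was left out, against 1445. Of 111 genes, normexp gave a difference smaller by over 1.5 times in 36, mostly dim ones, and turned the sign of 0. With a fixed slide block the sign turned for Vsig4 (0.10), Timd4 (0.66), Marco (0.96), Clec4f (0.57), S100a9 (3.02) and Ptprc (3.00). Without YFP-positive array 4 it turned for S100a9 (-3.36 to 0.15 when 1 array was left out), Ptprc (-3.48 to 0.28) and Alb (-0.025 to 0.68), and with array weights for Alb (-0.046). The relative median of the cell cycle list turned to 0.40 with normexp, 0.25 with a fixed slide block and 0.031 without YFP-negative array 4 (-0.38 to 0.031 when 1 array was left out), and that of the interferon list to 0.019 and 0.16 in the first 2 of these. That of the erythroid list ranged from -2.73 to -0.022 and that of the Wnt list from -1.42 to -0.19. The sign changed in 3, 9 and 3 of 18 settings for the oxidative stress and heme (-0.50 to 0.46), immediate early (-0.37 to 0.63) and Hippo lists (-0.48 to 0.61). It changed in 2 for the hepatocyte list (-0.14 to 0.98). For the laminin, Hedgehog, lymphoid and mesothelial lists it changed in 6, 4, 3 and 2, and for the macrophage and neutrophil lists in 1 each. Relative medians of the biliary (1.50 to 3.02), junction (2.0 to 3.44), stellate (-2.30 to -0.68), and collagen and matrix lists (-2.61 to -1.28) kept their sign in all 18 settings. Causes were not tested.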
